A study of Mus musculus with 26 samples.

Results

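The 37 autophagy genes described here were chosen by symbol to cover the steps from the start of autophagy to the capture of cargo, with the condition that a gene reached at least 1 FPKM in at least 3 libraries. FPKM is the number of sequenced fragments of a gene divided by its transcript length and by the library's total. This division adjusts for length and total, but FPKM still summed to 388107 to 501068 per library. Whether a further scaling between libraries was applied is not given. All 37 were found in the deposited table on 1 gene ID each, none was listed at 0 in any library, and all entered the test, so they make up 37 of the 12702 genes tested. The tissue was brown adipose tissue, the heat-producing fat, of mice aged 2 months. Control mice, called FF here, carried loxP-flanked alleles of Klf15 (KLF15 flox/flox), and BKO mice carried the same alleles together with a Cre transgene under the Ucp1 promoter (Ucp1-Cre/+;K15F/F). The Ucp1 promoter is active in brown adipocytes, so the other cells of the tissue keep Klf15, and a group with Ucp1-Cre but without floxed alleles is not among the groups. KLF15 is a transcription factor known for its part in amino acid and lipid use during fasting. For each genotype there were 3 libraries from fed and 3 from fasted mice kept at room temperature, 4 from cold-challenged mice and 3 from mice both in the cold and fasted, 26 libraries in all. The labels give neither the temperature nor the length of cold or fasting, and they do not say whether cold-challenged mice had food.

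Autophagy delivers parts of the cytoplasm to the lysosome for digestion. A kinase complex around ULK1 starts it, a lipid kinase and membrane suppliers build the growing membrane, and conjugation enzymes attach small ubiquitin-like proteins of the Atg8 family to that membrane, where receptors such as the product of Sqstm1 bring in cargo. In adipose tissue it is known for removing mitochondria and for taking part in the turnover of lipid stores, and fasting is its textbook stimulus. RNA levels do not measure the flux through the pathway.

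Klf15 ran from 2.12 to 8.92 FPKM in BKO libraries and from 9.04 to 30.6 FPKM in FF libraries, with no overlap. The brown fat genes Cidea, Cox7a1, Cox8b and Adipoq were abundant in every group. Other brown adipocyte markers varied, with group means of 100 to 652 FPKM for Elovl3, 19.6 to 89.2 FPKM for Dio2 and 9.64 to 33.4 FPKM for Ppargc1a. Ucp1 was listed at 0 in all 8 libraries of the cold challenge and at 2083 to 8700 FPKM elsewhere, which was treated as a failed estimate. The mean correlation of a library with the others of its group was 0.976 to 0.989. The library numbers in the labels form 2 series: numbers 1 to 8 are all FF (2 of the 3 fed, all 3 fasted and 3 of the 4 cold libraries), and numbers 15 to 32 hold all BKO libraries and the remaining FF libraries. The labels do not say what the numbers mark. Every library has a number of its own in the labels, which do not state that each is a separate mouse, so p-values measure the spread between these libraries. In whole tissue, fewer cells of a type and less RNA per cell cannot be told apart.

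Levels of the 37 genes spanned a wide range. Gabarap and Map1lc3a, 2 members of the Atg8 family, were among the most abundant, at 228 to 348 FPKM and 171 to 281 FPKM over the 26 libraries. The protease gene Atg4a (2.12 to 5.68 FPKM) and Uvrag (2.86 to 4.38 FPKM), whose product binds the lipid kinase complex, were among the least abundant. Between the group with the highest mean and the group with the lowest mean the fold was 1.13 to 5.78, with a median of 1.45. It was under 1.5 for 24 genes, and at least 2 for only 6: Gabarapl1, Bnip3, Sqstm1, Map1lc3b, Atg101 and Atg4d. The highest mean lay in a fasted room-temperature group for 19 genes (15 in FF, 4 in BKO) and in one of the cold groups, with or without fasting, for 17. The lowest mean lay in a fasted room-temperature group for 10 genes.

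Fasting at room temperature raised 17 of the 37 genes in FF mice and lowered 2 (limma, adjusted p under 0.05), where 37.5% of all tested genes were called, 18.1% higher and 19.4% lower. In BKO mice 10 genes rose and 0 fell, against 12.9% and 14.6% of all genes (27.4% in either direction). Fed and fasted libraries did not overlap for 20 of the 37 genes in FF, against 45.2% of all genes, and for 16 in BKO, against 40%. The 10 genes that rose in BKO were all among the 17 of FF. The median difference over the 37 genes was 0.18 on the log2(FPKM + 1) scale in FF and 0.11 in BKO, against -0.00 and -0.01 over all tested genes. The same genes differed widely in size of response: 4 of them rose by more than 1 log2 unit in both genotypes, and most of the others moved by less than 0.5.

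Those 4 genes were Gabarapl1, Bnip3, Sqstm1 and Map1lc3b. Their promoters are shown because they rose together, and that of Atg3 because it is the only one among the matched members with the letters TCACGTGA, the palindromic core of the motif bound by TFEB and related factors. The stretches are the 250 bases before the transcription start in RefSeq (GRCm38.p6), 5′ to 3′ on the strand of the gene, and capitals mark CACGTG, the E-box core, extended to TCACGTGA where the flanking letters are present.
Gabarapl1, chr6:129532942-129533191, plus strand: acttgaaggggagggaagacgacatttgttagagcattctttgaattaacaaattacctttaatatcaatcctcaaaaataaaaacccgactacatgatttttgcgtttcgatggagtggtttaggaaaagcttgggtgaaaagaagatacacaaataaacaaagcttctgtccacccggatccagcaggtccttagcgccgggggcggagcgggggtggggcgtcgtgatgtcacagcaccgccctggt
Bnip3, chr7:138909507-138909756, minus strand: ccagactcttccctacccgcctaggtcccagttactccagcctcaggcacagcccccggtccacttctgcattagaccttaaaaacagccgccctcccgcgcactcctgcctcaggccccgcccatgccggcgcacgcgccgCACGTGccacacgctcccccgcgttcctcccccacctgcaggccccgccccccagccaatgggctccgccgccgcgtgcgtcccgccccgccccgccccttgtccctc
Sqstm1, chr11:50210821-50211070, minus strand: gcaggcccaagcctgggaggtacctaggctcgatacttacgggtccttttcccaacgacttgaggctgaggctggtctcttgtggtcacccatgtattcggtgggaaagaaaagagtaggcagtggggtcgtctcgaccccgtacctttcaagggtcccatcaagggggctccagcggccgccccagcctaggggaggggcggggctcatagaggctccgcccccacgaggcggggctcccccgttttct
Map1lc3b, chr8:121590188-121590437, plus strand: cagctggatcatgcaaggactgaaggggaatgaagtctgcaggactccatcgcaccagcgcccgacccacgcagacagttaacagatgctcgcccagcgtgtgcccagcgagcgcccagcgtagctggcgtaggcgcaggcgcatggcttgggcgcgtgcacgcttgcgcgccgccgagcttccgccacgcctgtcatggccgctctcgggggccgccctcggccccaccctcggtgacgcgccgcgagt
Atg3, chr16:45158579-45158828, plus strand: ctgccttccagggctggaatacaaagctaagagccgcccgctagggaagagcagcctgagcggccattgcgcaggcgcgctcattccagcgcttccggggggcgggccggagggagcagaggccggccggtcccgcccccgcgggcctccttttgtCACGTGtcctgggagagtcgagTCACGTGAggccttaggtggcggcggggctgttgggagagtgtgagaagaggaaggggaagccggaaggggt

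Motifs were searched on both strands in RefSeq windows of 300 bases, 250 before and 50 after the start. These matched 30 of the 37 genes, with 36 windows, since a gene can have more than 1. CACGTG was present for 5 of these genes (Atg14, Atg3, Atg5, Atg7 and Bnip3), in 5 of the 36 windows, and in 10.2% of the windows of all tested genes. TCACGTGA, which contains CACGTG, was present for 1 gene (Atg3), in 1 of the 36 windows, and in 1.92% of the windows of all tested genes. The letters GTAAACA, a form of the forkhead core, were in the windows of 0 of the 30 genes and in 2.55% of the windows of tested genes. Other forms were not searched or counted, such as ATAAACA, which the Gabarapl1 stretch printed above carries. CCACACCC, a letter string of the kind Krüppel-like factors bind, was present for 4 genes (Atg4d, Tfe3, Ulk2 and Uvrag), in 4 of the 36 windows, and in 3.58%. The palindromic glucocorticoid response element was in 0 and in 0.347%. As printed above, Bnip3 and Atg3 carry CACGTG in the 250 bases before the start, and Gabarapl1, Sqstm1 and Map1lc3b carry none there.

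Gabarapl1, on chromosome 6 (129533160 to 129542346, plus strand, GRCm38), encodes an Atg8 family protein and had the largest rise in FF. Fed FF libraries were at 100, 128 and 92.6 FPKM and fasted FF libraries at 416, 409 and 688 FPKM. In BKO the fed values were 86.6, 79.7 and 95.4 FPKM and the fasted values 375, 264 and 265 FPKM. Fed and fasted libraries did not overlap in either genotype, and the lowest fasted library exceeded the highest fed library of any genotype. The means rose 4.71-fold in FF, from 107 ± 18.6 to 504 ± 159 FPKM (SD, n = 3 each), a log2 difference of 2.20 ± 0.20 (SE) with a limma adjusted p of 2.52e-08. In BKO they rose 3.45-fold, from 87.3 ± 7.86 to 301 ± 63.5 FPKM, a difference of 1.76 ± 0.20 with an adjusted p of 7.27e-07.

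Among the other Atg8 genes, Map1lc3b (chromosome 8, 121590361 to 121598760, plus strand), which encodes LC3B, the usual marker protein of autophagosomes, went from 82.4, 87.9 and 71.8 FPKM fed to 172, 162 and 235 FPKM fasted in FF. In BKO it went from 82.0, 74.1 and 81.1 FPKM to 185, 159 and 171 FPKM. All 6 fasted libraries lay above all fed ones, with log2 differences of 1.21 ± 0.11 (adjusted p = 2.72e-08) in FF and 1.11 ± 0.11 (adjusted p = 1.26e-07) in BKO. The 3 remaining family members did not pass the test. Map1lc3a, a close relative of Map1lc3b, differed by 0.14 in FF, with a 95% interval of -0.18 to 0.45, and by 0.19 in BKO (-0.12 to 0.51). Gabarap differed by 0.13 (-0.05 to 0.32) and 0.05 (-0.13 to 0.24), and Gabarapl2 by 0.16 (-0.05 to 0.36) and 0.09 (-0.12 to 0.29). The intervals of these 3 genes lie below those of Gabarapl1 and Map1lc3b in both genotypes.

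**Figure D1:**
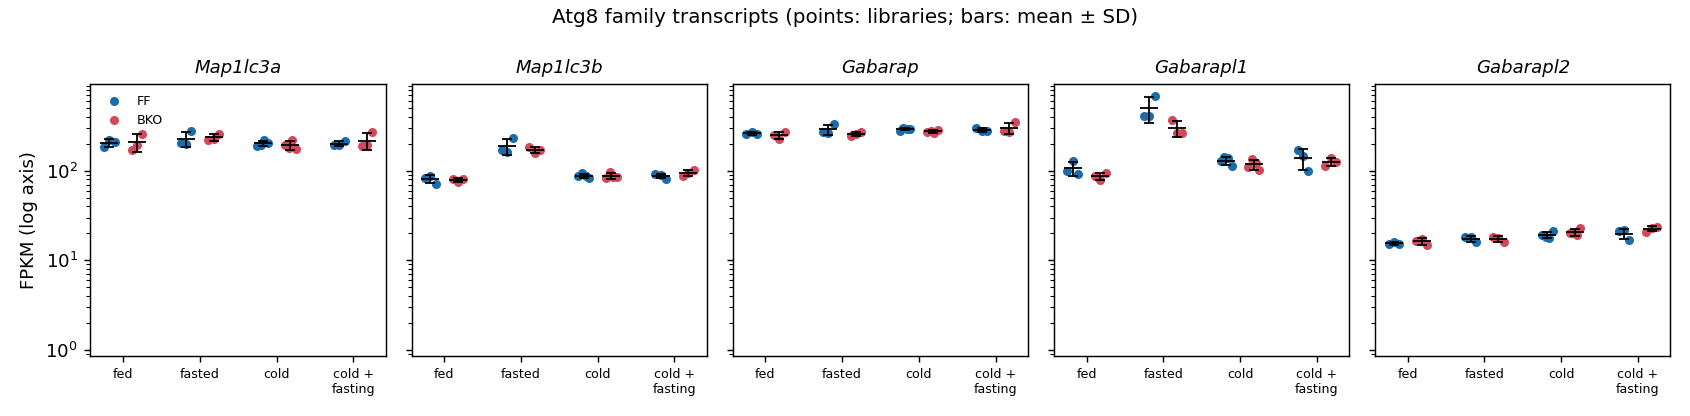
FPKM (log axis) of the 5 Atg8 family genes in the 8 groups; points are libraries, bars mean ± SD, blue FF and red BKO. Gabarapl1 and Map1lc3b are high in the fasted room-temperature groups, while Map1lc3a, Gabarap and Gabarapl2 stay within 171 to 281, 228 to 348 and 14.8 to 23.4 FPKM over all 26 libraries.

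Of the 3 genes for receptors that bring cargo to the membrane, 3 rose in FF and 2 in BKO. Sqstm1 (chromosome 11, 50199366 to 50210827, minus strand) encodes a receptor for ubiquitin-tagged cargo that is itself degraded by autophagy. It stood at 97.6, 105 and 91.7 FPKM in fed FF, 196, 244 and 332 FPKM in fasted FF, 99.8, 78.1 and 73.5 FPKM in fed BKO, and 212, 203 and 180 FPKM in fasted BKO libraries. Every fasted library exceeded every fed library, by 1.35 ± 0.14 in log2 in FF (adjusted p = 2.65e-07) and 1.24 ± 0.14 in BKO (adjusted p = 1.17e-06). Optn, which encodes optineurin, another ubiquitin-binding receptor, changed less, from 34.0 ± 1.05 to 41.7 ± 3.16 FPKM in FF (log2 difference 0.28, adjusted p = 0.0254) and from 31.8 ± 2.64 to 44.0 ± 0.256 FPKM in BKO (0.46, adjusted p = 0.00118). Nbr1, a relative of Sqstm1 in function, rose in FF by 0.43 (adjusted p = 0.00304) and had a difference of 0.20 in BKO (adjusted p = 0.168).

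Of the receptors for mitochondria, Bnip3 (chromosome 7, 138890836 to 138909519, minus strand), an outer-membrane protein, had a rise close in size to that of Gabarapl1. Its values were 188, 212 and 124 FPKM in fed FF, 554, 534 and 617 FPKM in fasted FF, 90.4, 142 and 133 FPKM in fed BKO, and 467, 487 and 325 FPKM in fasted BKO. The lowest fasted library was above the highest fed library. The means rose 3.25-fold in FF (1.73 ± 0.25, adjusted p = 1.21e-05) and 3.50-fold in BKO (1.80 ± 0.25, adjusted p = 1.08e-05). Its relative Bnip3l rose by 0.39 in FF and 0.44 in BKO, and Fundc1, another mitochondrial receptor gene, differed by 0.04 in FF (-0.22 to 0.30) and -0.10 in BKO (-0.37 to 0.16).

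**Figure D2:**
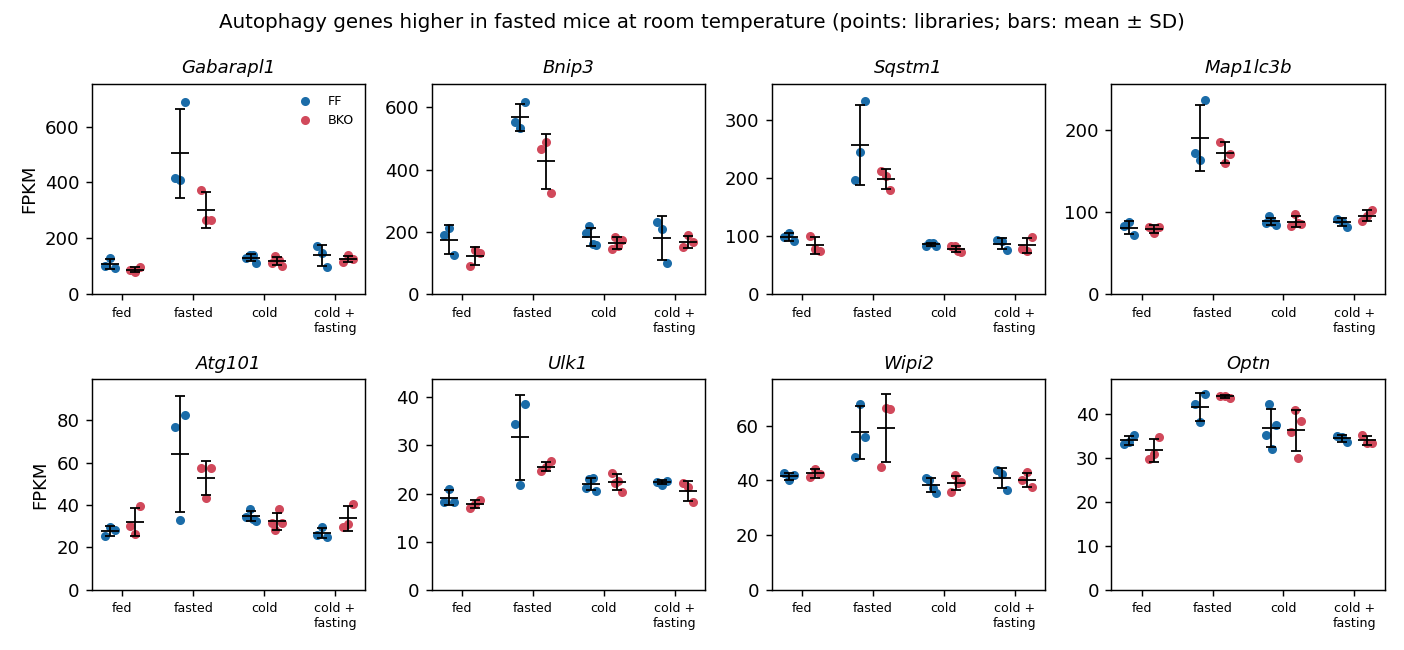
FPKM of 8 genes that rose with room-temperature fasting in both genotypes; points are libraries, bars mean ± SD, blue FF and red BKO. The fasted room-temperature groups stand apart for Gabarapl1, Bnip3, Sqstm1 and Map1lc3b, whereas cold with fasting lies near cold without it.

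In the initiation complex, Ulk1, the kinase, and Atg101 and Atg13, its partners, rose in FF. Ulk1 went from 18.2, 21 and 18.2 FPKM to 34.5, 21.8 and 38.7 FPKM in FF (0.66 ± 0.13, adjusted p = 0.00038), and from 17, 17.9 and 18.6 FPKM to 24.7, 25.4 and 26.6 FPKM in BKO (0.50 ± 0.13, adjusted p = 0.00643). Atg101 had the widest spread: 76.7, 32.9 and 82.7 FPKM in fasted FF against 25.4, 29.8 and 28.4 FPKM in fed FF (1.07 ± 0.23, adjusted p = 0.000752). In BKO it went from 30.3, 26.3 and 39.5 FPKM to 57.5, 43.3 and 57.5 FPKM (0.71 ± 0.23, adjusted p = 0.0214). The second fasted FF library was the lowest of its group for Ulk1, Atg101 and Atg13 and close to fed values for the first 2 of these. Atg13 rose in FF by 0.46 ± 0.09 (adjusted p = 0.000323) and differed by 0.15 in BKO (-0.03 to 0.34). Ulk2, the second kinase gene, and Rb1cc1, which encodes the scaffold FIP200, did not pass the test in either genotype.

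Of the 5 genes for membrane supply, 4 rose in FF: the lipid-transfer genes Atg2a (0.43) and Atg2b (0.37) and the phosphoinositide-binding Wipi1 (0.47) and Wipi2 (0.45). In BKO only Wipi2 passed, at 0.44, and Atg2a had a difference of 0.01 (-0.20 to 0.21). Atg9a, which encodes the transmembrane carrier of lipid vesicles, did not pass in either. In the lipid kinase complex Becn1, its beclin subunit, rose slightly in FF (0.22), while Pik3c3, the catalytic subunit, Atg14 and Uvrag did not pass.

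The conjugation genes were mixed. Atg7, the activating enzyme, rose in both genotypes (0.35 and 0.27), Atg16l1, which places the conjugation machinery, rose in FF (0.20), and Atg10, the conjugating enzyme for Atg12, fell in FF by 0.50 on the log2 scale. The proteases that prepare and recycle Atg8 proteins did not follow the Atg8 genes: Atg4d fell by 0.41 in FF, with fed values of 17.1, 15 and 23.4 FPKM and fasted values of 12.7, 15.5 and 12.5 FPKM that overlap. In BKO its difference was -0.29 (adjusted p = 0.105). Tfeb and Tfe3, which encode transcription factors that drive lysosomal and autophagy genes, did not pass. Tfeb differed by -0.30 in FF (-0.60 to 0.01) and by 0.08 in BKO (-0.23 to 0.38).

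With each library of the 2 groups left out in turn, 12 of the 19 FF calls and 6 of the 10 BKO calls were kept throughout. Those kept under all alternatives were, in FF, Atg13, Atg2a, Atg7, Map1lc3b, Gabarapl1, Sqstm1, Nbr1 and Bnip3, and, in BKO, Ulk1, Map1lc3b, Gabarapl1, Sqstm1, Optn and Bnip3. The call for Wipi2 in FF ended without fasted replicate 2 (adjusted p = 0.0531), and that for Atg16l1 ended without any of the 6 libraries (highest adjusted p = 0.185). Becn1 was lost without fed replicate 2 or 3 or fasted replicate 3 (0.101 at most), Atg10 without fed replicate 1 or 2 or fasted replicate 2 (0.135), and Atg4d without fed replicate 3 or fasted replicate 1 or 3 (0.154). Optn was lost in FF without fed replicate 1 or 2 or fasted replicate 1 or 3 (0.107), and Bnip3l without fed replicate 1 or 3 or fasted replicate 1 or 2 (0.148). In BKO, Atg101 was lost without fed replicate 1 or 2 or fasted replicate 1 or 3 (0.0974), Wipi2 without fasted replicate 2 or 3 (0.0644), Atg7 without any of the 6 libraries other than fed replicate 1 (0.166), and Bnip3l without fed replicate 1 or 3 or fasted replicate 2 (0.121). Fasted FF libraries all belong to the first number series and 1 of 3 fed FF libraries to the second, whereas all fed and fasted BKO libraries belong to the second. Within the first series, with 2 fed and 3 fasted FF libraries, the rises were 2.10 for Gabarapl1, 1.30 for Sqstm1 and 1.13 for Map1lc3b, Bnip3 had an adjusted p of 0.000697, and 11 genes were called in all.

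Of the marker lists for other cell types, 2 had summed levels that did not overlap in the same direction in both genotypes. The sum over the 4 lymphocyte markers was 4.41 to 8.38 FPKM in fed and 2.78 to 3.29 FPKM in fasted FF libraries, and 4.39 to 13.3 FPKM and 2.95 to 4.25 FPKM in BKO. The sum over the 4 endothelial markers was 117 to 122 and 128 to 135 FPKM in FF, and 120 to 135 and 138 to 149 FPKM in BKO. Of these 4 markers, 1 rose and 1 fell in FF, and 1 rose and 0 fell in BKO. No marker of either list was at 0 throughout a group. Of the 4 fibroblast markers, 1 rose and 2 fell in each genotype. The sum over the 3 erythroid markers did not overlap in FF (94.8 to 148 fed, 183 to 212 FPKM fasted) but did in BKO. The part of these markers in the fasting results was not tested.

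The cold challenge was compared with fed mice at room temperature in each genotype. In FF 6 of 37 genes rose and 2 fell, against 13.3% and 10.3% of all tested genes (23.6% in either direction). In BKO 5 rose and 1 fell, against 9.72% and 6.5% (16.2%). These shares are near those of all genes. The counts depended on library weights: with array weights 18 rose and 5 fell in FF, and 11 rose and 1 fell in BKO. The shares of all genes above are from the main fit, so they are no measure for the counts with array weights. Fed and cold libraries did not overlap for 13 genes in each genotype, against 33.5% of all genes in FF and 25.6% in BKO. The 5 genes that rose in both genotypes were Atg4d, Atg12, Bnip3l, Nbr1 and Gabarapl2, and Atg16l1 fell in both. The fed libraries are the controls of both the cold and the fasting comparisons.

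Atg4d (chromosome 9, 21265293 to 21277772, plus strand), a protease gene, had the largest cold difference. Fed FF libraries were at 17.1, 15 and 23.4 FPKM and cold FF libraries at 30.3, 26, 30.1 and 27.8 FPKM. Fed BKO libraries were at 18.6, 19.5 and 19.8 FPKM and cold BKO libraries at 26.9, 26, 33.9 and 29.5 FPKM. Cold libraries all lay above fed ones, by 0.62 ± 0.12 in log2 in FF (adjusted p = 0.000848) and 0.56 ± 0.12 in BKO (adjusted p = 0.00268).  The other 3 Atg4 genes did not pass in cold.

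Atg12, whose product is joined to Atg5 to build the conjugation enzyme, rose from 24.8, 23.5 and 23.2 FPKM to 34.4, 35.0, 29.5 and 37.1 FPKM in FF (0.49 ± 0.11, adjusted p = 0.00214), with no overlap. In BKO it went from 29.2, 24.8 and 21.6 FPKM to 36.1, 34.4, 29.1 and 40.1 FPKM (0.46 ± 0.11, adjusted p = 0.0051), where the lowest cold and the highest fed library overlap. Bnip3l, the mitochondrial receptor gene, rose by 0.51 and 0.41, from 23.7 ± 1.97 to 34.4 ± 4.34 FPKM in FF and from 24.5 ± 2.60 to 33.1 ± 5.29 FPKM in BKO. Nbr1 rose by 0.37 and 0.32, and Gabarapl2 by 0.30 and 0.33. Tfe3 rose in FF by 0.37 (adjusted p = 0.00733) and differed by 0.23 in BKO (adjusted p = 0.102). Atg16l1 fell by 0.22 in FF and by 0.23 in BKO, and Pik3c3 fell in FF by 0.27.

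The 4 genes with large fasting rises did not pass the test in cold. Gabarapl1 differed by 0.29 in FF (-0.09 to 0.67) and 0.42 in BKO (0.04 to 0.81, adjusted p = 0.122). Bnip3 differed by 0.09 (-0.39 to 0.57) and 0.45 (-0.03 to 0.93), Map1lc3b by 0.13 (-0.08 to 0.34) and 0.15 (-0.06 to 0.36), and Sqstm1 by -0.20 (-0.48 to 0.08) and -0.10 (-0.38 to 0.18). Ulk1 had 0.19 (-0.06 to 0.44) and 0.31 (0.06 to 0.56, adjusted p = 0.0857), and Tfeb 0.09 and 0.16.

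**Figure D3:**
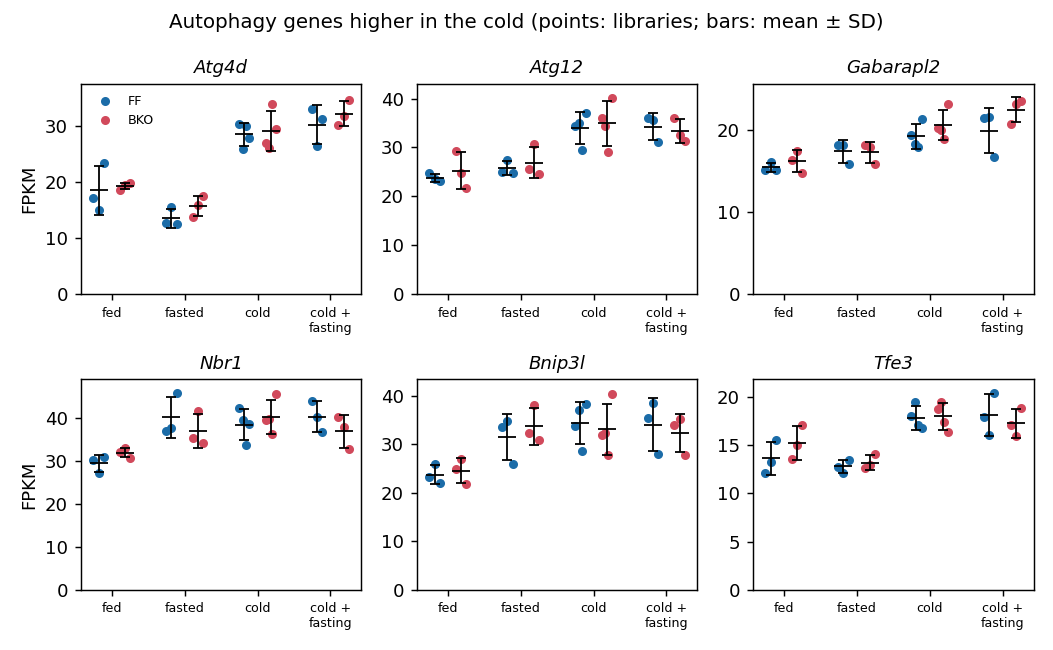
FPKM of 6 genes that were higher in cold-challenged FF mice; points are libraries, bars mean ± SD, blue FF and red BKO. For Atg4d every cold library, with or without fasting, is at 26 FPKM or above and every fed library at 23.4 FPKM or below.

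The cold calls depended on few libraries. Atg4d, Atg12 and Bnip3l in FF, and Atg4d and Atg12 in BKO, were kept when each library was left out in turn. In FF, 4 genes remained called without fed replicate 1 and 5 without fed replicate 2. In BKO the number was 3 without fed replicate 1 or 2 or cold replicate 1, and 2 without fed replicate 3 or cold replicate 4. In FF, Pik3c3 was lost without fed replicate 1 or 2 or cold replicate 1 or 3 (adjusted p up to 0.196), Atg16l1 without fed replicate 1 or 2 or cold replicate 1, 3 or 4 (0.151), Gabarapl2 without fed replicate 1 or 3 or cold replicate 4 (0.0844), Nbr1 without fed replicate 2 (0.0654) and Tfe3 without fed replicate 1 (0.067). In BKO, Atg16l1 was lost without any library other than cold replicate 2 (0.165), Nbr1 and Bnip3l without any other than cold replicate 3 (0.105 and 0.173), and Gabarapl2 without fed replicate 3 or cold replicate 4 (0.0982). The first number series alone, with 2 fed and 3 cold FF libraries, gave 3 calls.

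Markers of other cell types also differed between fed and cold. Of 3 erythroid markers, 3 rose in each genotype, and their sum was 94.8 to 148 FPKM in fed and 267 to 475 FPKM in cold FF libraries, and 135 to 375 FPKM and 339 to 563 FPKM in BKO. Of 4 fibroblast markers, 3 fell in each genotype, with sums of 111 to 149 and 72.6 to 93.2 FPKM in FF and of 102 to 150 and 69.7 to 81.5 FPKM in BKO. Of 4 endothelial markers, 3 rose in FF and 2 in BKO, with sums of 117 to 122 and 147 to 177 FPKM in FF and of 120 to 135 and 157 to 180 FPKM in BKO. Macrophage markers, 6 in all, gave 3 calls in FF, all lower, and 0 in BKO, with sums of 52.5 to 62.2 and 44.2 to 55.9 FPKM in FF. The 4 lymphocyte markers summed to 4.41 to 8.38 FPKM in fed and 18.6 to 42.9 FPKM in cold FF libraries, and to 4.39 to 13.3 and 9.82 to 13.4 FPKM in BKO. None of these markers was at 0 throughout a group, and their part in the cold results was not tested.

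Cold with fasting against cold alone gave no call, and the labels do not say whether mice in cold alone had food. Between cold with fasting and cold alone 0 of 37 genes passed in FF and 0 in BKO (limma), and at an unadjusted p under 0.05 there was 1 gene in each, Atg16l1. Over all 12702 genes 0% passed in FF, with 376 genes at an unadjusted p under 0.05, and 0.00787% in BKO, with 1109 such genes. Most cold FF libraries are of the first number series, and all FF libraries of cold with fasting are of the second. The FF comparison is therefore partly confounded with the series. Gabarapl1 stood at 129, 141, 139 and 113 FPKM in cold and 171, 145 and 98.5 FPKM in cold with fasting in FF, and at 111, 137, 123 and 101 FPKM and 114, 138 and 124 FPKM in BKO. These libraries overlap fully, and the differences were 0.05 (-0.33 to 0.43) and 0.09 (-0.29 to 0.48). The upper bounds lie far below the 2.20 and 1.76 seen at room temperature. For Bnip3 the differences were -0.11 (-0.59 to 0.37) and 0.04 (-0.44 to 0.52), with the third FF library of cold with fasting, at 98.6 FPKM, below the others of its group at 231 and 210 FPKM. Sqstm1 differed by 0.02 and 0.10, Map1lc3b by -0.01 and 0.11, and Ulk1 by 0.02 and -0.12.

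The difference between the fasting response in the cold and at room temperature was tested directly, averaged over both genotypes. It passed for 14 of 37 genes (limma), of which 13 had the smaller response in the cold and 1 the larger, against 16.5% and 17% of all tested genes (33.4% in either direction). The difference was -1.90 ± 0.19 for Gabarapl1 (adjusted p = 1.71e-07), -1.80 ± 0.24 for Bnip3 (6.71e-06), -1.24 ± 0.14 for Sqstm1 (7.98e-07) and -1.11 ± 0.11 for Map1lc3b (9.06e-08). Atg101 (-1.04), Ulk1 (-0.63), Optn (-0.45), Atg7 (-0.44), Bnip3l (-0.44), Wipi2 (-0.38), Nbr1 (-0.34), Atg2b (-0.32) and Atg13 (-0.29) also passed. Atg4d, at 0.46, was the gene with the opposite sign. All 14 calls were kept when each of the 26 libraries was left out in turn, and 10 also with a term for the number series, which ended those of Atg13, Atg2b, Atg4d and Bnip3l.

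**Figure D4:**
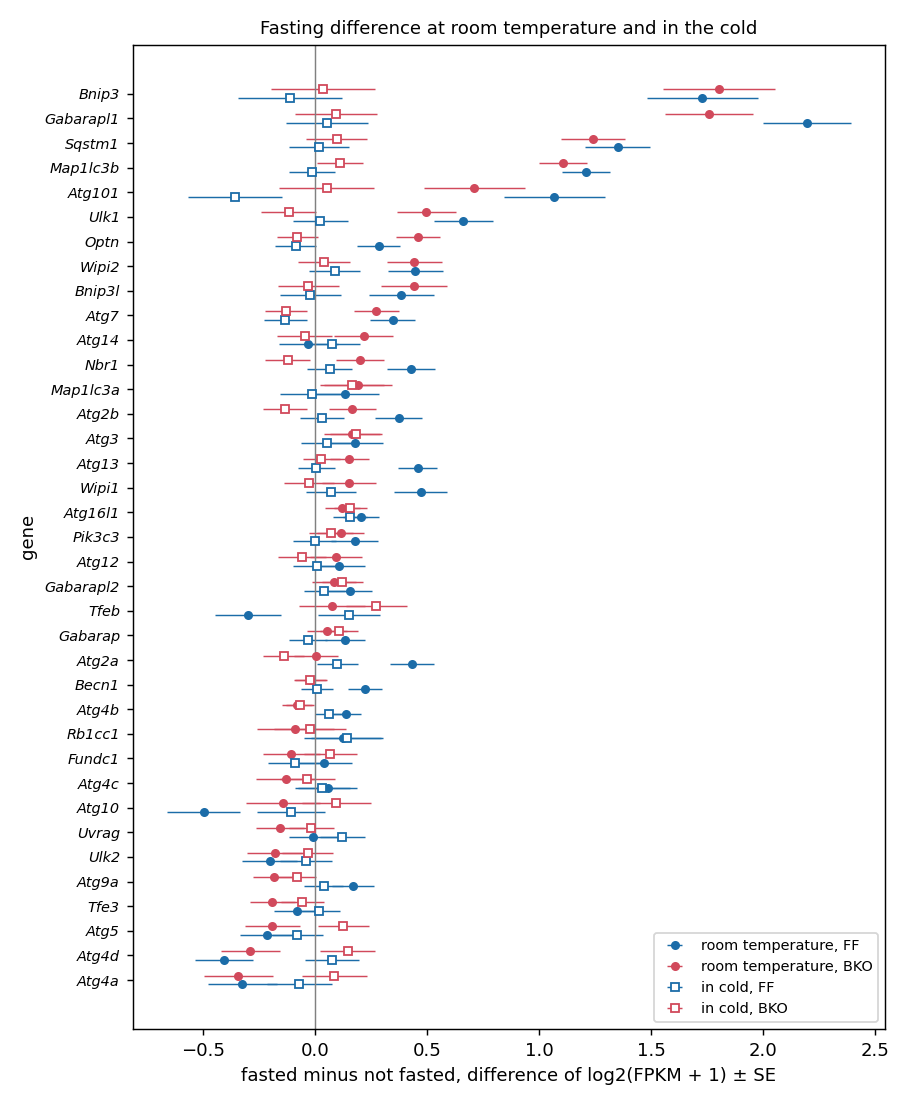
Difference of log2(FPKM + 1) (± SE) for each of the 37 genes, blue FF and red BKO. Filled points are fasted minus fed at room temperature, and open points are cold with fasting minus cold alone. The labels do not say whether mice in cold alone had food. The filled points of Bnip3, Gabarapl1, Sqstm1 and Map1lc3b lie above 1, while every open point lies between -0.36 and 0.27.

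Cold with fasting was also set against fed mice, which are the controls of the cold comparison too. In FF 7 genes rose and 0 fell, against 11.5% and 8.93% of all genes (20.5% in either direction). In BKO 5 rose and 0 fell, against 10% and 8.93% (19%). With quantile normalization 6 rose and 1 fell in FF, and with array weights 15 genes were called in FF and 14 in BKO. The shares of all genes above are from the main fit only. All FF libraries of cold with fasting are of the second number series, and 2 of the 3 fed FF libraries are of the first. With a term for the series 2 of the 7 FF calls were left, those of Atg4d and Atg12. The calls of Atg2a (adjusted p = 0.370), Gabarapl2 (0.0971), Nbr1 (0.115), Bnip3l (0.0722) and Tfe3 (0.160) ended, and the second series alone, with 1 fed FF library, gave 0 calls. In BKO both groups are of the second series. Atg4d (0.69 and 0.71), Atg12 (0.50 and 0.40) and Gabarapl2 (0.34 and 0.45) rose in both. Nbr1, Bnip3l, Tfe3 and Atg2a rose in FF, and Gabarap and Tfeb in BKO. The last 2 calls ended without the third BKO library of cold with fasting, and also, for Gabarap, without fed replicate 1 or 2 (adjusted p up to 0.273) and, for Tfeb, without cold-with-fasting replicate 2 or any fed library (0.218). In BKO the count was 2 or 3 without any 1 of the fed libraries, and Atg12 was lost without fed replicate 2 or 3 or cold-with-fasting replicate 1 (0.0989). In FF it was 3 without fed replicate 1 and 4 without cold-with-fasting replicate 1. There Atg2a was lost without any library other than fed replicate 3 (0.167), Gabarapl2 without fed replicate 1 or cold-with-fasting replicate 1 or 2 (0.0955), Bnip3l without fed replicate 1 or 3 or cold-with-fasting replicate 1 or 2 (0.0942), and Tfe3 without fed replicate 1 or cold-with-fasting replicate 3 (0.0706). Gabarapl1 was 0.34 (-0.06 to 0.75) and 0.52 (0.11 to 0.93, adjusted p = 0.0681), and Sqstm1 -0.18 (-0.48 to 0.12) and 0.00 (-0.30 to 0.30).

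Markers of other cell types differed in this comparison as well. The 3 erythroid markers rose in each genotype, with sums of 94.8 to 148 FPKM in fed and 367 to 442 FPKM in cold-with-fasting FF libraries, and of 135 to 375 and 350 to 802 FPKM in BKO. Of the 4 fibroblast markers 3 fell in FF and 2 in BKO, with sums of 111 to 149 and 80.5 to 94.3 FPKM in FF and of 102 to 150 and 83.3 to 91.6 FPKM in BKO. Of the 4 endothelial markers 2 rose in FF and 1 in BKO, with sums in cold with fasting of 133 to 161 FPKM in FF and 109 to 152 FPKM in BKO. The 1 lymphocyte marker tested rose in each genotype, and the 4 lymphocyte markers summed to 13 to 32.8 FPKM in FF and 12.6 to 17.8 FPKM in BKO in cold with fasting. No marker of these lists was at 0 throughout a group, and their part was not tested.

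Against mice fasted at room temperature, cold with fasting had 8 of 37 genes higher and 15 lower in FF, and 7 higher and 8 lower in BKO. With quantile normalization the split in BKO was 6 higher and 11 lower. All tested genes gave 26% and 25.9% in FF (52% in either direction) and 22.9% and 22.2% in BKO (45.1%). The 8 genes lower in BKO were all lower in FF too: Gabarapl1 (-1.85 in FF and -1.24 in BKO), Bnip3 (-1.75 and -1.32), Sqstm1 (-1.53 and -1.24), Map1lc3b (-1.09 and -0.84), Atg101 (-1.12 and -0.63), Wipi2 (-0.47 and -0.52), Atg7 (-0.46 and -0.51) and Optn (-0.27 and -0.36). Higher in both were Atg4d (1.10 and 0.99), Atg5 (0.42 and 0.48), Ulk2 (0.47 and 0.44), Atg4a (0.46 and 0.56), Tfe3 (0.47 and 0.36) and Atg12 (0.39 and 0.30). In FF the groups lie in different number series, and with a term for the series 10 genes were called, 3 higher and 7 lower. In BKO both groups lie in the same series, and with array weights 23 genes were called, 10 higher and 13 lower. The shares of all genes above are those of the main fit. The 3 erythroid markers and the 1 lymphocyte marker tested were higher than in fasted mice in each genotype. Erythroid sums were 183 to 212 FPKM in fasted and 367 to 442 FPKM in cold-with-fasting FF libraries, and 126 to 233 and 350 to 802 FPKM in BKO. Of the 4 fibroblast markers 2 were higher and 1 lower in each genotype, with sums of 115 to 133 and 80.5 to 94.3 FPKM in FF and of 106 to 120 and 83.3 to 91.6 FPKM in BKO. Of the 4 endothelial markers 1 was higher and 0 lower in FF and 1 higher and 3 lower in BKO, and of the 6 macrophage markers 2 were lower in FF. The part of these markers was not tested.

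**Figure D5:**
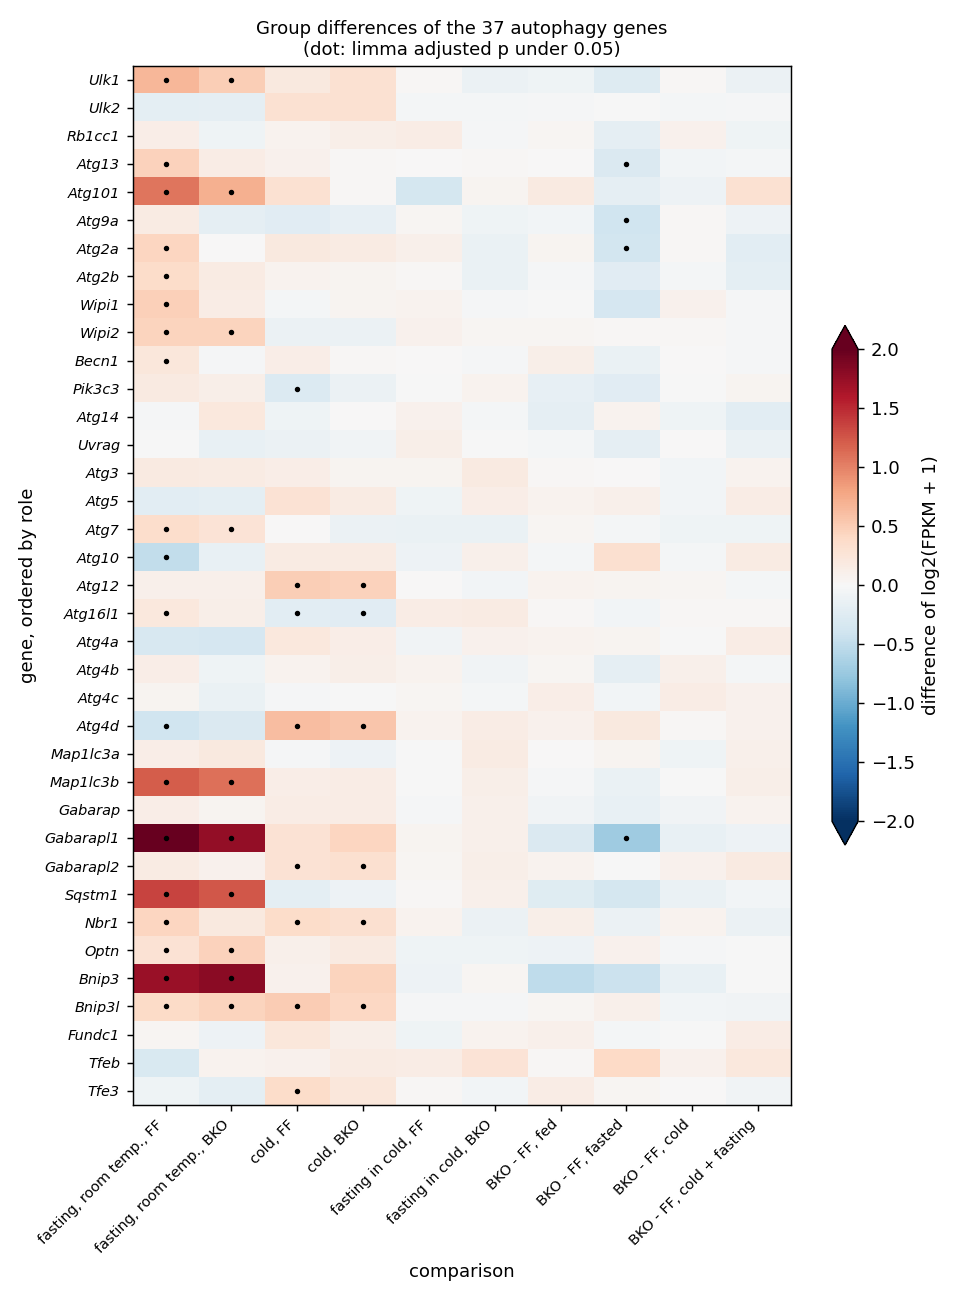
Difference of log2(FPKM + 1) for the 37 genes (rows, ordered by role) in 10 comparisons (columns), red higher and blue lower, with a dot where the limma adjusted p was under 0.05. The fasting columns at room temperature hold 19 dots in FF and 10 in BKO, and the fasting columns in the cold hold 0.

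Between BKO and FF, 0 of 37 genes passed in fed mice, 0 in cold and 0 in cold with fasting (limma), while 0.22%, 0.402% and 0.236% of all tested genes passed. At an unadjusted p under 0.05 the counts were 0, 0 and 1. Most fed and cold FF libraries are of the first number series, and all BKO libraries are of the second. Genotype is therefore partly confounded with the series in fed mice, in cold and in the average over conditions. In cold with fasting both genotypes are of the second series. In fed mice Bnip3 had the largest difference, -0.51 (-1.02 to 0.00), with BKO at 90.4, 142 and 133 FPKM and FF at 188, 212 and 124 FPKM, which overlap. Gabarapl1 differed by -0.28 (-0.69 to 0.13) in fed mice, -0.15 (-0.50 to 0.20) in cold and -0.11 (-0.51 to 0.30) in cold with fasting. Averaged over the 4 conditions 0 genes passed, with 8 at an unadjusted p under 0.05 and 2.97% of all genes called. Gabarapl1 was closest, at -0.31 ± 0.10 (adjusted p = 0.0743).

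In fasted mice 4 genes were lower in BKO and 0 higher, against 4.15% and 4.53% of all tested genes (8.68% in either direction). The libraries of the genotypes did not overlap for 6 of the 37 genes and for 23.1% of all genes. Gabarapl1 was at 375, 264 and 265 FPKM in BKO and 416, 409 and 688 FPKM in FF, a difference of -0.72 ± 0.20 (adjusted p = 0.0245) with no overlap. Atg9a, at 11.6, 12.4 and 12.5 FPKM against 17.1, 14.2 and 18.1 FPKM, differed by -0.40 (adjusted p = 0.00949). Atg2a, at 8.34, 8.21 and 9.21 FPKM against 11.1, 11 and 12.2 FPKM, differed by -0.37 (adjusted p = 0.0182), and Atg13 by -0.29 (adjusted p = 0.0409) with overlap. Sqstm1 (-0.34, adjusted p = 0.144), Bnip3 (-0.43, 0.304), Ulk1 (-0.26, 0.239) and Map1lc3b (-0.13, 0.519) did not pass. Here genotype and number series cannot be told apart from the fasted libraries alone, since all fasted FF libraries are of the first series and all fasted BKO libraries of the second. With a term for the series, estimated from the fed and cold FF libraries, 0 of the 4 calls remained, and Gabarapl1 had -0.57 (adjusted p = 0.397), Atg2a -0.52 (0.0642), Atg9a -0.39 (0.188) and Atg13 -0.26 (0.406). Fasted FF replicate 3 was the highest library for Gabarapl1, and without it 0 genes were called, with Gabarapl1 at -0.47 (adjusted p = 0.179). Gabarapl1 also missed the threshold without fasted BKO replicate 2 or 3 (adjusted p = 0.0913 and 0.123) and with no filter on low values (0.051). Atg9a was lost without fasted FF replicate 3 (0.0743), Atg2a without that library or fasted BKO replicate 1 or 2 (0.0531 to 0.0962), and Atg13 without any of the 6 libraries other than fasted FF replicate 2 (0.0606 to 0.233). The count was 7 without fasted FF replicate 2, 2 without fasted BKO replicate 1 or 3 and 1 without fasted BKO replicate 2. The summed skeletal muscle markers, 8 genes of which none was at 0 throughout a group, were at 16.8 to 63.8 FPKM in fasted FF and 38.5 to 124 FPKM in fasted BKO libraries, with 1 of 7 tested markers called as higher, and their part was not tested. Of 12 brown adipocyte markers tested, 2 were higher and 1 lower in fasted BKO than in fasted FF mice, and their part was not tested either.

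The fasting responses of the 2 genotypes were compared by an interaction term. For 0 of 37 genes did the difference pass (limma), with 5 at an unadjusted p under 0.05 and 0.716% of all genes called. Atg2a was closest, with a response lower in BKO by 0.43 (-0.71 to -0.14, adjusted p = 0.164). Gabarapl1 had -0.44 (-1.01 to 0.14), Bnip3 0.07 (-0.65 to 0.80), Sqstm1 -0.11 (-0.53 to 0.31) and Map1lc3b -0.10 (-0.42 to 0.22). The 7 genes called as higher in FF and not in BKO were therefore not shown to respond differently.

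Lysosomal genes and upstream regulators that are not among the 37 were followed by lists, whose counts stand beside 18.1% higher and 19.4% lower of all tested genes for fasting in FF, 12.9% and 14.6% for fasting in BKO, 13.3% and 10.3% for cold in FF, and 9.72% and 6.5% for cold in BKO. The median log2 difference over all tested genes lay between -0.01 and 0.01 in each of these comparisons. Of 15 genes for the lysosomal proton pump, 7 rose and 1 fell with fasting in FF, and 3 rose and 2 fell in BKO, the latter near the shares of all genes, with medians of 0.22 and 0.15. Atp6v0e, a membrane subunit, rose by 1.14 and 0.78. Of 25 lysosomal hydrolases and membrane proteins, 12 rose and 5 fell in FF, and 10 rose and 4 fell in BKO, with medians of 0.17 and 0.27. Npc1, which exports cholesterol from the lysosome, rose by 0.94 and 1.13, and Ctsl, a cathepsin gene, by 0.82 and 0.68. In BKO Npc2 (-0.75) and Ctsd (-0.57) fell. In cold 9 of these 25 rose and 2 fell in FF, and 7 rose and 2 fell in BKO, with medians of 0.18 and 0.14. Ctsz, another cathepsin gene, rose by 1.44 and 1.21.

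Of 14 genes for the fusion of autophagosomes with lysosomes, 4 rose and 2 fell with fasting in FF, and 2 rose and 3 fell in BKO, with medians of 0.19 and 0.03. Tecpr1, a tether of this step, rose by 0.57 and 0.46 with fasting and by 0.85 and 0.65 with cold. With fasting Vps33a fell in both genotypes (-0.56 in FF and -0.39 in BKO), and Ykt6 fell in BKO (-0.33). Among 9 further lipid kinase and membrane supply factors, 4 rose and 1 fell in FF, and 1 rose and 1 fell in BKO, with medians of 0.20 and 0.08. Among 18 other receptors, 5 rose and 2 fell in FF, and 5 rose and 0 fell in BKO, with medians of 0.07 and 0.12. Fam134b, also called Retreg1, a receptor for the endoplasmic reticulum, rose by 2.36, from 10.1 ± 4.92 to 60.5 ± 34.8 FPKM in FF, and by 1.38, from 5.66 ± 1.16 to 16.6 ± 4.68 FPKM in BKO. Of 34 genes of nutrient sensing, 11 rose and 7 fell in FF, and 8 rose and 8 fell in BKO, with medians of 0.04 and 0.03. The 7 that fell in FF are a share near that of all genes. Sesn2, a sensor that restrains the growth kinase mTORC1, rose by 1.34 and 1.24, and Rragd, a lysosomal GTPase gene, by 0.79 and 0.87. Rptor fell in FF (-0.51) and Deptor in BKO (-1.21). The fasting calls of the genes named in these 2 paragraphs were kept with every library left out in turn, except that of Vps33a in BKO. That call ended without fasted BKO replicate 1. With only the 1 fed and 1 cold FF library of the second series the FF cold calls of Ctsz and Tecpr1 ended.

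Counting could also affect some members. Exons of 12 of the 37 genes overlap a gene on the opposite strand in GENCODE M21, among them Map1lc3b with Zcchc14, Sqstm1 with Mrnip, Bnip3 with Gm45507, Gabarapl1 with 1700101I11Rik and Atg4d with Kri1. Whether strand was used in counting is not given in the sources used here, so reads from the shared parts of these pairs may not be told apart. The length of the overlaps was not measured. The mean levels of the partners were low beside Gabarapl1 (0.296 against 184 FPKM), Bnip3 (0.565 against 243), Sqstm1 (1.32 against 118) and Map1lc3b (7.06 against 108), and higher in proportion beside Atg4d (Kri1, 5.06 against 23.8 FPKM), Rb1cc1 (4732440D04Rik, 2.85 against 8.41) and Atg9a (Ankzf1, 7.79 against 13.1). For Uvrag (Gm45187, 6.43 against 3.58 FPKM) and Atg2b (Gskip, 5.87 against 5.25 FPKM) the partner exceeded the member, so the values of these genes are uncertain.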

How the data were processed

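RNA-seq of brown adipose tissue gave 1 FPKM value per gene in each of 26 libraries. Per the submitters' processing notes, the authors used STAR, Cufflinks and Cuffdiff with mm10 (versions not stated) to obtain these FPKM values. Whether a scaling between libraries was applied, and whether counting used strand, is not given in the sources used here. The deposited FPKM columns sum to 388107 to 501068. Read depth is unknown, so no counting interval is given.

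The 37 genes, the related lists and the markers were chosen with earlier results of these data known. All members may be named. Of the lists, up to 4 called genes with the smallest adjusted p in a comparison were eligible for naming. Values entered limma (3.58.1, R 4.3.3) after addition of 1 and log2 transformation, so that changes of low genes are understated. A gene was kept if 3 or more libraries reached 1 FPKM. Left out were 33 genes listed at 0 in some library with every non-zero value at 100 FPKM or more. Of these, 6 otherwise passed the filter, and 12702 genes remained. A model of 8 group means over all 26 libraries with empirical Bayes moderation and intensity trend gave two-sided tests, adjusted by Benjamini-Hochberg over all genes tested, with a threshold of 0.05. Genes that "rose" or "fell" passed it. Groups do not overlap where every library of one lies above every library of the other. The procedure was tested on simulated data.

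Alternatives were a pseudocount of 0.1, no filter, a mean of at least 5 FPKM, quantile normalization, array weights, a term for the library number series, only the groups compared, only the second series, zeros kept, each library left out in turn, and, chosen after seeing the data, only the first series. Gene positions are from GENCODE M21 (GRCm38), which held all 37 gene IDs, 29 in the same version, and promoter sequences are from RefSeq (GRCm38.p6).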

Additional observations from a re-analysis of the deposited data

Results flagged for a closer look

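The response to fasting, averaged over both genotypes, was smaller in the cold than at room temperature for 13 genes by a test of the difference itself (limma interaction contrast, adjusted over all genes tested). On the log2(FPKM + 1) scale the difference was -1.90 for Gabarapl1, -1.80 for Bnip3, -1.24 for Sqstm1, -1.11 for Map1lc3b, -1.04 for Atg101, -0.63 for Ulk1, -0.45 for Optn, -0.44 for Atg7, -0.44 for Bnip3l, -0.38 for Wipi2, -0.34 for Nbr1, -0.32 for Atg2b and -0.29 for Atg13. For Atg4d it was 0.46, in the opposite direction. Of the 37 genes 37.8% were called, near the 33.4% of all tested genes (16.5% lower and 17% higher). Adjusted p ran from 9.06e-08 for Map1lc3b to 0.0199 for Bnip3l. The labels do not say whether the mice of the cold challenge had food.

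Of 74 groups of 4 cold libraries tested for a library far from the rest, 2 had one, and chance gives about 1 in 20. Both concern replicate 3 of cold FF mice. Rb1cc1, which encodes the scaffold of the initiation complex, was at 6.32 FPKM there and at 8.87 to 9.07 FPKM in the other 3 libraries. Uvrag was at 3.05 FPKM against 3.54 to 3.61 FPKM. Neither gene was called in the cold comparison of FF mice.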

How the results depend on the processing

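Among the log2 differences followed through the alternatives, none that was called in the main fit or in the alternative changed sign. Sign changes of differences called in neither were not counted. Counts of called genes moved by more than 1.5 times as follows. The shares of all tested genes under the alternatives are not given here. With only the groups compared, the count went from 19 to 11 (fasting, FF), from 6 to 3 (cold, BKO), from 7 to 3 and from 5 to 2 (cold with fasting against fed, FF and BKO), and from 4 to 0 (genotype, fasted). With array weights it went from 8 to 23 and from 6 to 12 (cold, FF and BKO), from 7 to 15 and from 5 to 14 (cold with fasting against fed), from 15 to 23 (cold with fasting against fasting, BKO), and from 0 to 1 (genotype, fed), 3 (genotype, average) and 1 (difference of fasting responses). A term for the number series gave 2 instead of 7 (cold with fasting against fed, FF), 10 instead of 23 (cold with fasting against fasting, FF) and 0 instead of 4 (genotype, fasted). The second series alone, with 1 fed FF library and, in cold, 1 cold FF library whose spread was taken from the other groups, gave 0 for cold and for cold with fasting against fed in FF. The first series alone gave 11 for fasting and 3 for cold in FF. No filter and quantile normalization each gave 3 instead of 5 (cold with fasting against fed, BKO), and quantile normalization gave 1 instead of 0 for the genotype average. The cause of these changes was not tested.

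With each library left out in turn the counts ran from 15 to 18 and from 7 to 9 (fasting, FF and BKO), 4 to 9 and 2 to 7 (cold), 3 to 7 and 2 to 5 (cold with fasting against fed), 18 to 22 and 14 to 17 (cold with fasting against fasting), 0 to 7 (genotype, fasted), 0 to 3 (genotype, average), 0 to 1 (difference of fasting responses) and 14 to 17 (fasting in cold minus room temperature), and were 0 throughout for the other comparisons. Over all results and alternatives, 251 values lost the call and 43 gained one. No paired analysis was possible because the labels give no replicate numbers shared between groups. The second series alone holds no fasted FF library, and fits of only the groups compared equal the full fit where all 8 groups enter. Zeros kept as values changed no count.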

Other observations

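Lysosomal enzymes did not move as a block. Ctsd, the gene of the aspartic protease cathepsin D, fell with fasting by 0.44 in FF and by 0.57 in BKO (log2), from means of 813 and 808 FPKM to 601 and 543 FPKM, and rose with cold by 0.44 in each genotype, to 1103 and 1094 FPKM. The summed level of the 25 hydrolases and membrane proteins was 2827 to 3063 FPKM in fed, 2822 to 2857 FPKM in fasted and 3674 to 3949 FPKM in cold FF libraries. The 15 proton pump genes summed to 824 to 870 FPKM in fed, 1147 to 1256 FPKM in fasted and 1015 to 1073 FPKM in cold FF libraries. In BKO the sums of the 25 genes were 2971 to 3154 FPKM fed, 2672 to 2917 FPKM fasted and 3734 to 3935 FPKM in cold. The proton pump sums were 862 to 899, 1062 to 1116 and 1013 to 1104 FPKM. Ctsd is among the 25 genes, so its changes enter their sums. The fasted and fed sums of the 25 genes overlap in FF and not in BKO, and the fasted and cold pump sums overlap in BKO and not in FF. Cold sums of the 25 genes lie above fed and fasted ones in both genotypes.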
